A study of Junonia coenia with 20 samples.

Results

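In the hind wings of the buckeye butterfly Junonia coenia, 80 of 16251 listed transcripts were studied for a stepwise decline of their level from the larval wing disc to the pigmenting pupal wing. They were chosen from these same values. For each transcript the mean level of each stage was taken over both colour morphs, and the 80 whose smallest of the 3 drops between successive stages was largest became members. The order of the 4 stage means is therefore fixed by the choice and is described here without a test.

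The wing of a butterfly grows in the caterpillar as an imaginal disc, a sac of dividing epithelium that folds out at pupation. In the pupa its epidermis forms the scales that cover the wing, and those scales are then filled with pigment. In nymphalids such as the buckeye the ommochromes, made from tryptophan, give the yellow, orange and red colours and are deposited late in pupal life.

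The libraries came from 2 colour morphs, Linea and Rosa, at 4 stages: discs of the fifth larval instar (larva below), pupal wings before pigment (pre-pigment), wings in early (yellow) ommochrome development (early) and wings in late (orange/red) ommochrome development (late). Animals of a North Carolina population ate an artificial diet in incubators, either cool with short days (8 h of light, 21°C) or warm with long days (16 h of light, 27°C). The labels do not tie a morph to a regime, so morph and rearing cannot be told apart. Of 20 samples, 16 have a column of values, 2 for each morph and stage, and the other 4 were not analysed here. The labels do not say whether replicates are separate animals, so a p-value here reflects the variation among libraries alone, part or all of which may be technical.

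Levels are RPKM, read numbers divided by transcript length and library size, further divided by a factor for each library (scaled RPKM). The factor is the library's median ratio to the mean of all libraries over transcripts found in every one. The factors ran from 0.578 to 1.81 and were highest in the larval libraries. The sequencing depth behind an RPKM value is unknown. Transcripts carry identifiers of the authors' assembly only, so no member is given a function, no list of named genes could be described, and the tissue could not be checked against marker genes. Where values of single libraries are listed, the lower replicate number comes first. The numbers are 2 and 3 in larvae, 1 and 3 in Rosa early wings, and 1 and 2 elsewhere.

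At their median, though not in every case, the members lay above the median transcript in the disc and below it in late wings. The median member had a stage mean of 22.1 scaled RPKM in larvae, 9.44 in pre-pigment wings, 5.68 in early wings and 3.47 in late wings. Over all 15798 transcripts kept for tests the corresponding medians were 6.64, 7.5, 7.59 and 7.25, so the median transcript did not share this course. Among the members the larval mean ran from 3.75 to 2331 scaled RPKM, and the late mean from 0.351 to 198.8. The late mean was 14.5% of the larval mean in the median member, with a range from 0.917% to 34.1%. In bulk tissue such as this, fewer cells of a type and less RNA per cell cannot be told apart.

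The members took a shrinking share of the library, which the choice itself favours. JC_0115304 weighed heavily in this sum. It held 3755 of the members' 6836 scaled RPKM in Rosa larva replicate 3, and 651 of 3112 in Rosa larva replicate 2. Of all RPKM summed, the larval libraries gave 1.24% ± 0.319 (SD, n = 4) to the members, with 0.26% ± 0.0748 in pre-pigment wings, 0.185% ± 0.0608 in early wings and 0.0977% ± 0.0262 in late wings (SD, n = 4 each). In larval libraries at most 1 member was below 1 scaled RPKM, against 3 to 6 in pre-pigment, 6 to 11 in early and 22 to 28 in late libraries. Of the 1280 values of the members, 18 (1.41%) were listed at exactly 0, and 15 of these were in late wings. Linea late replicate 1 alone held 10 of them, against 2 in Linea late replicate 2, 2 in Rosa late replicate 1 and 1 in Rosa late replicate 2. Over all transcripts kept, 8781 of 252768 values (3.47%) were 0, 2915 of them in late wings. All 80 members passed the filter on low values (1 RPKM in at least 2 libraries), which their larval level alone can secure.

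**Figure D1:**
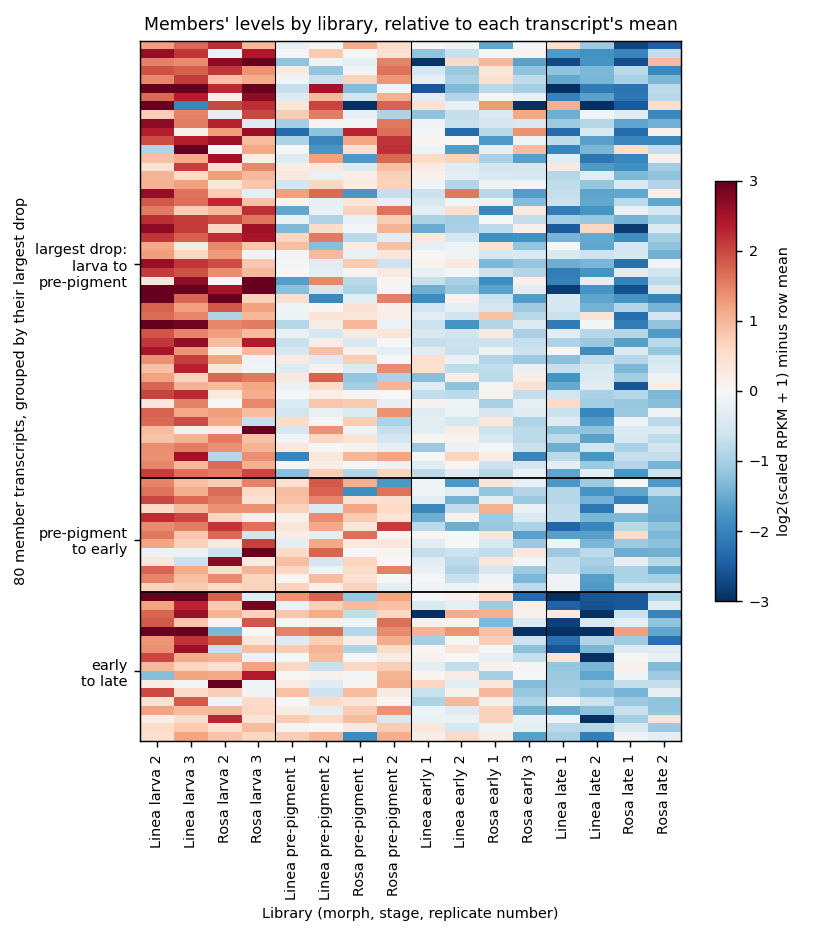
Level of each of the 80 members (rows) in the 16 libraries (columns), as log2(scaled RPKM + 1) minus the row's mean, with colours ending at -3 and 3; rows are grouped by the step with the largest drop, which was larva to pre-pigment for 50, pre-pigment to early for 13 and early to late for 17. Larval columns are mostly red and late columns mostly blue, while single libraries break the order in many rows.

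The decline was steepest at the first step for most members. Drops are differences of stage means of log2(scaled RPKM + 1). Their median was 0.98 from larva to pre-pigment (0.38 to 4.40 over the members), 0.55 from pre-pigment to early (0.38 to 2.08) and 0.65 from early to late (0.39 to 2.42). The first step was the largest for 50 members, the second for 13 and the last for 17. Of all 15798 transcripts kept, falling or not, the same 3 counts were 7195, 4070 and 4533. The first step was thus the most frequent largest one in general. Over all transcripts kept, the medians of the same 3 drops were 0.14, -0.077 and 0.061. The total drop from larva to late had a median of 2.24 log2 units and a range from 1.36 to 5.65.

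By this division the later the largest drop, the higher the median member stayed in pre-pigment wings. The 50 with the largest first drop had a median larval mean of 24.3 scaled RPKM and a median pre-pigment mean of 9.04. The 13 with the largest second drop went from 10.8 in pre-pigment to 4.42 in early wings at the median. The 17 with the largest last drop still had 13.7 in pre-pigment and 8.07 in early wings, and then 3.49 in late wings. These are medians of stage means, and the kinds were read from the same values.

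The smallest step of a member was not large against the spread between libraries. In a limma fit of all 16 libraries a step had a median standard error of 0.52 over the members. The smallest of a member's 3 drops was larger than its standard error in 34 of 80 members and larger than 2 standard errors in 0 of 80. The ratio of that drop to its standard error ran from 0.371 to 1.88, with a median of 0.947. Because the choice used these contrasts, the calls are given only as a description. At the first step 19 of 80 members were lower at an adjusted p under 0.05 (limma), where 14.4% of all transcripts were lower and 27.7% were called in either direction. At an unadjusted p under 0.05 there were 31 members (38.8%), beside 40.2% of all in either direction. At the second step limma called 0 of 80 members, against 0.354% of all called as lower and 0.582% in either direction. There, 5 members (6.25%) were at an unadjusted p under 0.05, beside 10.5% of all in either direction. At the last step limma called 0 of 80, against 0% of all. Here 8 members (10%) were at an unadjusted p under 0.05, beside 5.34% of all in either direction.

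The libraries of neighbouring stages mostly overlapped. All 4 larval libraries lay above all 4 pre-pigment libraries in 15 members, against 14.7% of all transcripts. All pre-pigment libraries lay above all early ones in 5 members (3.08% of all transcripts), and all early above all late ones in 5 members (1.91% of all transcripts). Stages further apart were better separated: larval libraries all lay above late ones in 62 members (14.1% of all transcripts), and pre-pigment above late ones in 29 (4.39% of all transcripts). In 58 members no single step was free of overlap, 19 had 1 such step, 3 had 2, and 0 had all 3. Such steps were not counted per transcript over all transcripts, so these numbers only describe the members. The total decline from disc to late wing adds up the 3 drops that the rule made large. Its clearer separation was therefore favoured by the choice and is not a separate result.

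The 3 members with 2 steps free of overlap, named after their values were seen, had the most separated steps, not the most even drops. JC_0091899 was at 107 and 99.1 scaled RPKM in Linea and 89.3 and 70.3 in Rosa larvae. It was at 19.5, 11.6, 18.9 and 37.8 in the same order in pre-pigment wings, 11.2, 10.7, 22.3 and 13.3 in early wings, and 10.3, 9.65, 7.72 and 10.4 in late wings. Every larval library was high and every late one was below every early one, while pre-pigment and early wings overlapped. The drops of JC_0091899 were 2.11, 0.52 and 0.50 log2 units.

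JC_0032608 had 31.1, 21.1, 32.9 and 20.6 scaled RPKM in larvae, 7.61, 8.63, 11.8 and 9.36 in pre-pigment wings, 5.31, 6.95, 5.59 and 3.5 in early wings, and 5.64, 2.52, 4.15 and 2.59 in late wings. Its first 2 steps were free of overlap, and early and late wings overlapped. JC_0001402 had 45.4, 66.1, 19.3 and 54.7 scaled RPKM in larvae, 5.72, 10.9, 6.61 and 9.51 in pre-pigment wings, 5.58, 5.8, 5.88 and 5.61 in early wings, and 4.6, 3.9, 2.46 and 5.1 in late wings. Here the early libraries had a mean of 5.72 ± 0.146 (SD, n = 4), and all of them were above the late ones. Its later drops, 0.41 and 0.45 log2 units, were small beside the first of 2.27.

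**Figure D2:**
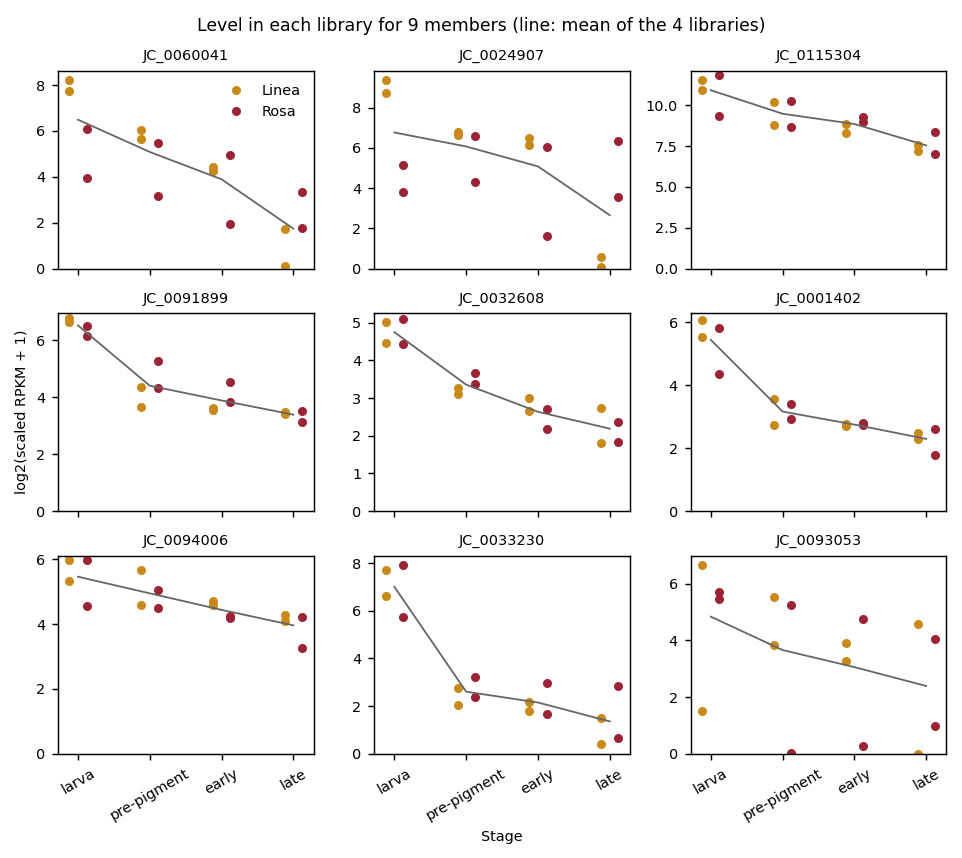
Level of 9 members in each library as log2(scaled RPKM + 1), by stage; each point is a library, coloured by morph, and the line joins the means of the 4 libraries. JC_0032608 steps down with little scatter, JC_0094006 overlaps between neighbouring stages, JC_0024907 runs apart in the morphs at larva and late, and JC_0093053 spans from near 0 to its highest levels within most stages.

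The most abundant member kept its rank throughout. JC_0115304 was at 1918 and 3000 scaled RPKM in Linea larvae and 651 and 3755 in Rosa larvae. Pre-pigment wings had 449, 1149, 402 and 1236, early wings 461, 318, 613 and 501, and late wings 144, 191, 130 and 330. It had the highest larval mean of the members (2331 ± 1350, SD, n = 4) and the highest late mean (198.8 ± 91.3, SD, n = 4). All larval values were above all late ones, while larvae and pre-pigment wings overlapped, since Rosa larva replicate 2 lay below both pre-pigment libraries numbered 2.

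The member next to it by late level was JC_0093592, the last inside the choice. It had 245, 185, 169 and 233 scaled RPKM in larvae, 23.7, 97, 31.2 and 93 in pre-pigment wings, 33.2, 43.9, 31.3 and 50 in early wings, and 18.7, 46.7, 16.6 and 36.7 in late wings. The larval libraries stood clear of the rest, and the 3 pupal stages overlapped. Its mean went from 208 ± 36.8 in larvae to 61.2 ± 39.1, 39.6 ± 8.88 and 29.6 ± 14.5 (SD, n = 4 each). At the other end, JC_0012743 and JC_0066526 had the lowest larval means, 3.75 ± 2.34 and 4.23 ± 6.01 scaled RPKM (SD, n = 4 each), and late means of 0.739 ± 1.27 and 0.364 ± 0.315. JC_0066526 was at 13.2 in Rosa larva replicate 2 and between 0.369 and 1.77 in the other 3 larval libraries, so its larval mean rests on 1 library.

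The largest smallest drop belonged to JC_0060041. It had 299 and 213 scaled RPKM in Linea larvae and 66 and 14.3 in Rosa larvae, and 48.9, 65.3, 7.92 and 44.1 in pre-pigment wings. Early wings had 17.9, 20.6, 29.8 and 2.89, and late wings 0.0972, 2.32, 2.38 and 9.17. In Linea the libraries of each stage lay below those of the stage before, and in Rosa every pair of neighbouring stages overlapped. The drops were 1.41, 1.19 and 2.15 log2 units, the smallest with a standard error of 0.76.

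JC_0113259 followed, at 13.2, 28.5, 9.54 and 43.6 scaled RPKM in larvae, 4.43, 9.03, 10.9 and 10.2 in pre-pigment wings, and 3.43, 4.03, 1.87 and 5.9 in early wings. In late wings it was at 0.134 and 4.18e-05 in Linea and at 0.0594 and 3.73 in Rosa. It was thus close to 0 in 3 late libraries and not in the other one. The drops were 1.19, 1.01 and 1.57 log2 units.

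The longest way down was that of JC_0033230 and JC_0025182. JC_0033230 had 97, 211, 52.7 and 243 scaled RPKM in larvae, 3.08, 5.86, 4.22 and 8.36 in pre-pigment wings, 2.5, 3.51, 2.18 and 6.75 in early wings, and 0.346, 1.87, 0.567 and 6.12 in late wings. Most of its decline, 4.40 of 5.65 log2 units, lay between larva and pre-pigment, and it also had the most uneven drops of the members. JC_0025182 had 115, 92.3, 43 and 198 scaled RPKM in larvae, 4.76, 51.6, 2.75 and 7.6 in pre-pigment wings, 0.571, 2.68, 4.25 and 3.56 in early wings, and 0, 1.14, 1.01 and 4.39 in late wings. Its drops were 3.31, 1.54 and 0.65 log2 units, and Linea pre-pigment replicate 2 stood far above the other pre-pigment libraries. JC_0057052 was the next most uneven, with drops of 2.61, 0.95 and 0.45 log2 units and larval values of 72.6, 12.6, 46.4 and 5.48 scaled RPKM.

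In the mean of both morphs, the most even drops were those of JC_0094006 and JC_0043310. JC_0094006 had 61.4, 39.5, 61.6 and 22.7 scaled RPKM in larvae, 23, 49.9, 21.4 and 32.1 in pre-pigment wings, 25.4, 23.1, 17.1 and 18.1 in early wings, and 18.3, 15.9, 17.7 and 8.57 in late wings. Its drops of 0.51, 0.51 and 0.48 log2 units were nearly equal, and each pair of neighbouring stages overlapped. JC_0043310 had drops of 0.72, 0.80 and 0.81 log2 units, with stage means of 26.3 ± 14.3, 15.8 ± 11.7, 8.07 ± 3.63 and 4.78 ± 3.33 scaled RPKM (SD, n = 4 each). In neither morph alone was it even, with drops of 1.26, -0.046 and 1.76 log2 units in Linea and 0.19, 1.64 and -0.14 in Rosa. JC_0094006 had drops of 0.52, 0.47 and 0.48 in Linea and 0.50, 0.55 and 0.47 in Rosa.

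The members varied widely in how well their libraries repeated. The standard deviation between replicates of a group, on the log2 scale, had a median of 0.788 over the members and 0.691 over all transcripts kept. JC_0033611 had the lowest, 0.183. It was at 92.2, 80.5, 55.6 and 41.4 scaled RPKM in larvae, 20.6, 17, 22.1 and 25 in pre-pigment wings, 17.7, 20.3, 13.1 and 10.9 in early wings, and 4.17, 5.36, 16.2 and 13.9 in late wings. Larvae stood clear of the rest, and the late libraries split by morph. JC_0093053 had the highest, 2.59, with 99.1, 1.87, 43.3 and 50.8 scaled RPKM in larvae, 13.3, 44.6, 0.0139 and 37.1 in pre-pigment wings, 14.1, 8.54, 26 and 0.222 in early wings, and 22.7, 1.25e-05, 0.954 and 15.3 in late wings. Each stage held a library near 0 or far below the others, and no 2 stages were separated.

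A single library held over 50% of the summed larval level in 19 of 80 members (23.8%), beside 26.5% of all transcripts kept. The next 3 are examples named after their values were seen. JC_0010498 was at 4.21 and 24.8 scaled RPKM in Linea larvae and at 3.06 and 369 in Rosa larvae. JC_0025906 was at 1.71, 1.73, 0.969 and 106 in the same libraries, and JC_0000589 at 32.8, 27, 258 and 25.2. For JC_0025906 the other 3 larval values were below its pre-pigment mean of 4.27 ± 3.37 (SD, n = 4). For JC_0010498 and JC_0000589 the other larval values overlapped the pre-pigment ones.

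At the limit of the choice the values ran on without a gap. The last 2 inside, JC_0042514 and JC_0093592, had smallest drops of 0.3836 and 0.3833 log2 units, and the first 2 outside, JC_0000643 and JC_0098168, had 0.3791 and 0.3775. JC_0042514 had stage means of 9.76 ± 2.52, 3.33 ± 0.443, 2.37 ± 0.764 and 1.36 ± 0.807 scaled RPKM, and JC_0000643 4.42 ± 1.54, 2.64 ± 2.39, 1.94 ± 2.44 and 0.88 ± 0.723 (SD, n = 4 each). Among all transcripts kept, 1202 (7.61%) had stage means in descending order.

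Within each morph the order was looser than in the mean of both. In Linea the group means of 53 members were lower at each successive stage, in Rosa those of 47, in both morphs those of 35, and in neither morph those of 15. Over all transcripts kept the shares were 7.1% in Linea, 6.3% in Rosa and 1.32% in both. The choice used the sum of the morphs, so these shares were bound to differ. Step by step, the first drop was above 0 in 71 members in Linea and 67 in Rosa, the second in 65 and 74, and the last in 75 and 63. Among all transcripts kept the shares were 51.4% and 55.7%, 45.1% and 45.4%, and 57.2% and 49.3%. The choice on the mean of both morphs raised the members' counts.

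**Figure D3:**
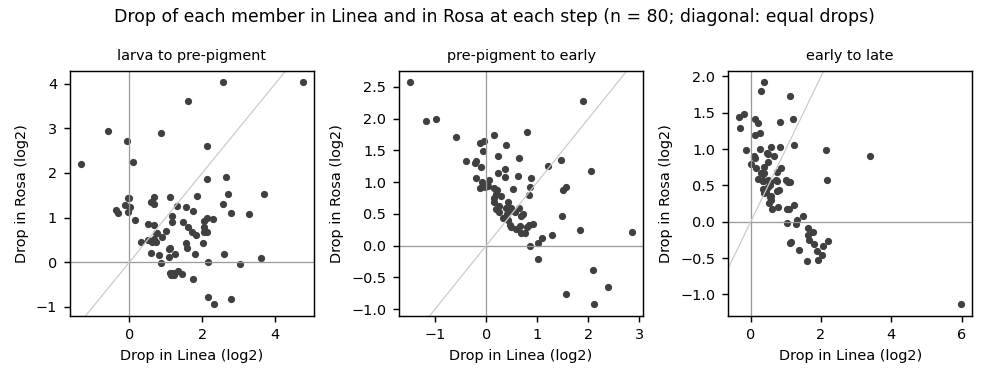
Drop of each member in Linea (horizontal axis) and in Rosa (vertical axis) at each step, in log2 units; each point is 1 of 80 members and the diagonal marks equal drops. The choice required the mean of both axes to reach 0.3833, which empties the lower left of each panel, and the point at the far right of the last panel is JC_0024907.

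The difference between the morphs was not used to choose the members, since each stage mean weighed both morphs equally, and it was tested. The question was whether the decline, or the level at any stage, differs between the colour morphs. Rosa against Linea, limma called 0 of 80 members in larvae, where 0.114% of all 15798 transcripts were called, 0.0886% as lower and 0.0253% as higher in Rosa. It also called 0 of 80 in pre-pigment wings (0% of all), 0 of 80 in early wings (0.0127% of all), 0 of 80 in late wings (0.00633% of all) and 0 of 80 averaged over stages (0.0127% of all). At an unadjusted p under 0.05 there were 8 members in larvae, 7 in pre-pigment, 2 in early and 3 in late wings, and 4 averaged over stages. As shares these are 10%, 8.75%, 2.5%, 3.75% and 5%, beside 6.48%, 4.86%, 5.58%, 5.35% and 5.56% of all transcripts. The precision limits what this shows: the standard error of a morph difference at a single stage had a median of 0.74 log2 units over the members, and 0.37 averaged over stages.

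In direction, the members leaned towards Linea in the disc. The larval difference, Rosa minus Linea, was below 0 in 54 of 80 members. Rosa was the higher in 32.5% of members, beside 49% of all transcripts kept. The larval difference had a median of -0.32 log2 units (-4.57 to 2.42), while the median of all transcripts kept was -0.012. Its median stayed between -0.38 and -0.24 with any single library left out. The median was 0.16 in pre-pigment, -0.12 in early and 0.26 in late wings, and -0.033 averaged over stages. The pre-pigment median became -0.048 without Linea pre-pigment replicate 1, and the early median became 0.090 without Rosa early replicate 3. The early median also turned to 0.44 with RPKM as deposited, where the median of all transcripts was 0.47, and to 0.035 with quantile normalization. The late median of all transcripts was 0.052 with every library in. Without Rosa late replicate 2 the late median was 0.050 for members and 0.087 for all transcripts. Without Linea late replicate 2 it was 0.069 for members and 0.018 for all transcripts. The larval and late medians kept their signs under both scalings. Linea and Rosa differed by more than 2-fold, up or down, in 26 members in larvae, 25 in pre-pigment, 16 in early and 16 in late wings, which is 32.5%, 31.2%, 20% and 20%, beside 20.7%, 20.7%, 20% and 17.7% of all. No test over the members as a group was made.

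The shape of the decline was compared between the morphs as well. An F test of the morph difference over stages called 0 of 80 members (limma, 0% of all called), with 6 members (7.5%) at an unadjusted p under 0.05 beside 6.1% of all. The first step differed between morphs in 0 of 80 members (0% of all), the second in 0 of 80 (0.0127% of all) and the last in 0 of 80 (0% of all). At an unadjusted p under 0.05 there were 5 members (6.25%) at each step, beside 4.98%, 5.01% and 5.11% of all transcripts. The median member dropped by 1.25 log2 units in Linea and 0.82 in Rosa at the first step, 0.47 and 0.79 at the second, and 0.69 and 0.56 at the last. Over all transcripts kept the first drop had a median of 0.048 in Linea and 0.19 in Rosa. For the first step, 57 of 80 members had the larger drop in Linea, a count not made over all transcripts. The difference had a median of 0.63 log2 units, beside -0.075 over all transcripts. It ranged from 0.37 without Linea pre-pigment replicate 1 to 0.87 without Rosa pre-pigment replicate 1. For the second step the median was -0.19, the larger drop being in Rosa, beside 0.022 over all transcripts. Leaving out Linea pre-pigment replicate 1 gave -0.019, and leaving out replicate 2 gave -0.50. For Rosa the values were -0.50 or -0.056 when pre-pigment replicate 1 or 2 was omitted, and -0.49 or -0.068 when early replicate 1 or 3 was. It turned to 0.29 with RPKM as deposited, where the median of all transcripts was 0.51. The standard error of such a difference in a single member had a median of 1.05 log2 units.

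The member with the lowest p for the larval difference was JC_0024907, which also had the lowest p of the F test and of the last step. It was at 423 and 665 scaled RPKM in Linea larvae and 13 and 34.6 in Rosa larvae, and at 98.6, 110, 18.5 and 93.9 in pre-pigment wings. Early wings had 70.2, 89.6, 64.2 and 2.13, and late wings had 0.0591 and 0.51 in Linea and 81.4 and 11 in Rosa. Linea was thus high in the disc and near 0 late, while Rosa showed no steady course. Rosa minus Linea was -4.57 ± 1.27 log2 units (SE) in larvae, with both Rosa libraries below both Linea ones (limma adjusted p = 0.44), and 4.64 ± 1.27 in late wings, with both Rosa libraries above (limma adjusted p = 0.48). The last step differed by 7.13 ± 1.79 log2 units (SE, limma adjusted p = 0.41), and the F test gave an adjusted p of 0.31 in limma.

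JC_0033611, the best repeated member, had the lowest p in late wings. Both Rosa late libraries, 16.2 and 13.9 scaled RPKM, were above both Linea ones, 4.17 and 5.36, a difference of 1.48 ± 0.38 log2 units (SE, limma adjusted p = 0.43). In larvae the order was the opposite, with a difference of -0.83 ± 0.38 (SE, limma adjusted p = 0.77). Neither passed the threshold.

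JC_0035277 had the lowest p in pre-pigment wings. It was at 1.07 and 0.00363 scaled RPKM in Linea and at 7.89 and 16.5 in Rosa pre-pigment wings, a difference of 3.11 ± 0.71 log2 units (SE, limma adjusted p = 0.53). In larvae it had 14.3, 19.4, 22.6 and 6.57, in early wings 3.13, 2.97, 0.204 and 2.62, and in late wings 1.34, 0.289, 2.61e-06 and 0.00632. In Linea it was thus lower in pre-pigment than in early wings, against the order of the stage means. It also had the lowest p for the morph difference of the first step (3.52 ± 1.00 log2 units, SE, limma adjusted p = 0.77) and of the second (-4.07 ± 1.00, SE, limma adjusted p = 0.43).

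JC_0034081 had the lowest p in early wings. It was at 3.52 and 1.54 scaled RPKM in Linea and 0.027 and 0.0317 in Rosa early wings, a difference of -1.72 ± 0.52 log2 units (SE, limma adjusted p = 0.53). Rosa was also the lower in pre-pigment wings, at 1.07 and 1.92 against 4.71 and 9.76, while larvae overlapped at 15.2 and 11.7 in Linea and 15.9 and 19.1 in Rosa. In late wings it was at 0.385, 0.254, 0.00319 and 0.796. Averaged over stages the lowest p was that of JC_0028529, with 36.9, 17.8, 9.22 and 4.01 scaled RPKM in larvae, 13.3, 18.7, 0.82 and 2.75 in pre-pigment wings, 2.87, 17, 2.4 and 0.913 in early wings, and 2.78, 1.03, 1.06 and 5.71 in late wings. Rosa was lower at the first 3 stages, without overlap, and overlapped Linea in late wings. The mean difference was -1.47 ± 0.42 log2 units (SE, limma adjusted p = 0.75).

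The division of the decline into steps depended on the pre-pigment libraries and on the scaling. In pre-pigment wings the library numbered 2 was above that numbered 1 in 54 of 80 members in Linea and 52 of 80 in Rosa, beside 50.6% and 53.1% of all transcripts. Larvae have no library numbered 1. Without both pre-pigment libraries numbered 1 the median drops became 0.77 at the first step and 0.84 at the second, so that the second was no longer the smaller, and 74 of 80 members kept 3 drops above 0. The part of the replicate number in the choice was not tested further. With RPKM as deposited the median drops of the members were 2.12, 0.20 and 0.59 log2 units, where the median of all transcripts shifted to 1.09, -0.36 and 0.017. On that scale 78 of 80 members kept 3 drops above 0, and the second step was the smallest. With quantile normalization the medians were 1.03, 0.67 and 0.54 log2 units, and 80 of 80 kept 3 drops above 0.

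Which transcripts belonged to the list changed with the libraries and the settings. The course of the members was fixed by the choice, so its stability is not set against that of the list. The same rule chose 48 to 71 of the 80 again when any single library was left out. It chose 30 again from RPKM as deposited, 44 with a pseudocount of 0.1, 60 after quantile normalization and 34 without both pre-pigment libraries numbered 1. From Linea libraries only it chose 17 of the 80, and from Rosa libraries only 23. When the smallest drop was divided by the standard deviation between replicates, 34 of the 80 were chosen again.

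**Figure D4:**
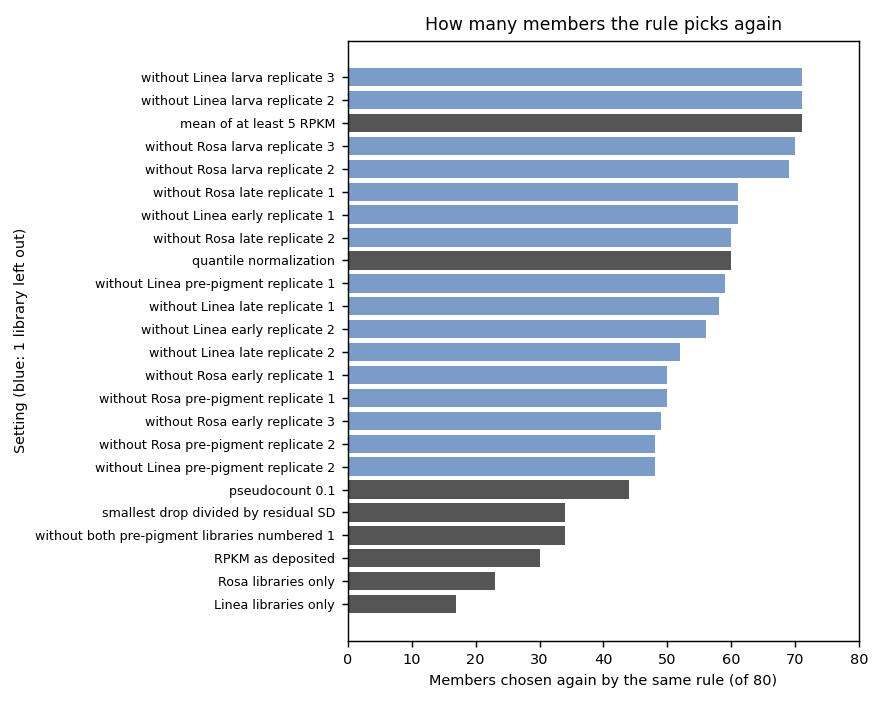
Number of the 80 members that the same rule chose again (horizontal axis, from 0 to 80) under each setting (vertical axis); blue bars leave out 1 library and grey bars change the processing or the libraries. Leaving out a larval library kept 69 to 71 members, leaving out a pre-pigment, early or late library kept 48 to 61, and a single morph kept 17 or 23.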

How the data were processed

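Hind wing RNA was measured in 16 libraries of 2 morphs and 4 stages. Double-stranded cDNA from poly(A) RNA was fragmented to 300 bp and sequenced from both ends with reads of 75 bp or 100 bp, per the labels' protocols, which tie no read length to a library. The deposited values are RPKM computed by the authors. Bowtie 0.12.7 is named in a list of tools, per the submitters' processing notes. How the transcripts were assembled and RPKM estimated is not given in the sources used here. Strand and gene names were not used. RPKM keeps no depth, so no counting interval is given.

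Each library was divided by its median ratio to the transcripts' geometric means, using the 7126 transcripts that reached 1 RPKM in all libraries, and log2(scaled RPKM + 1) was analysed, which understates changes of low transcripts. Tests used limma 3.58.1 in R 4.3.3, with 8 group means, 8 residual degrees of freedom, a trended prior variance and p-values adjusted by Benjamini-Hochberg across 15798 transcripts, those reaching 1 RPKM in 2 libraries or more. The fitting code was tested on simulated data. The members, comparisons and settings were chosen with earlier results of these data known. Named members are the extremes of level, drop, evenness and spread, the last inside the choice, and the lowest p of each morph comparison; others are marked as named after their values were seen.

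Groups of a stage share replicate numbers. The deviations of same-numbered Linea and Rosa libraries correlated at 0.171 to 0.379 in the 3 stages that share both numbers. Over all 11 pairs of groups with the same numbers the range was -0.178 to 0.379. Some groups of different stages correlated as much, at 0.238 for Linea pre-pigment with Rosa late and 0.219 for Linea late with Rosa pre-pigment. Neither the data nor a label thus settles whether the numbers pair libraries within a stage. The main fit used no block, and a fit with a block within each stage was added after the data were seen.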

Additional observations from a re-analysis of the deposited data

Results flagged for a closer look

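For the 18 members named by rule and the summed level of all members, the 4 libraries of each stage, both morphs together, were screened for a library far from the other 3. A library was singled out when its gap to the nearest other, as a part of the whole range, exceeded Dixon's critical value for 4 samples. Of 76 sets of 4 libraries examined, 7 held such a library. Chance gives about 1 in 20 for normally distributed values, which unlogged RPKM are not, and these members were picked as extremes. By the same criterion 10.9% of 63192 such sets over all transcripts kept held one, and 29 of 320 sets (9.06%) over all 80 members, so 7 of 76 is near the background. In each the library was above the others. JC_0113259 was at 3.73 scaled RPKM in Rosa late replicate 2 and at most 0.134 in the other 3 late libraries. JC_0024907 was at 81.4 in Rosa late replicate 1 and at most 11 in the others. JC_0012743 was at 2.65 in Linea late replicate 1 and at most 0.197 in the others. JC_0025182 was at 51.6 in Linea pre-pigment replicate 2 and at most 7.6 in the others. JC_0043310 was at 33.3 in Rosa pre-pigment replicate 2, against 9.02 to 10.8. JC_0028529 was at 17 in Linea early replicate 2, against 0.913 to 2.87. JC_0066526 was at 13.2 in Rosa larva replicate 2, against 0.369 to 1.77. The source of these values was not tested.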

How the results depend on the processing

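Of 232 recomputed counts of members called between the morphs, over 9 comparisons, 230 were 0. The settings were 2 scalings (quantile normalization and none, that is RPKM as deposited), array weights, fits on the compared libraries alone, both replicate blocks, a pseudocount of 0.1 and 2 filters (none, or a mean of 5 RPKM). They also included leaving out both pre-pigment libraries numbered 1 and each library in turn. The exceptions came without Rosa larva replicate 2, where JC_0025906 was called in larvae and at the first step, so these 2 counts ranged from 0 to 1. Rosa larvae are then a single library, assumed to vary like the others. With the replicate number as a block, or as a block within each stage, the counts stayed at 0.

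The count of members chosen again was 30 with RPKM as deposited, 44 with a pseudocount of 0.1, 34 without both pre-pigment libraries numbered 1, 17 and 23 from Linea or Rosa libraries only and 34 with the drop divided by the spread. It ranged from 48 to 71 with a library left out: 48 without Linea or Rosa pre-pigment replicate 2, 49 and 50 without Rosa early replicates 3 and 1, 50 without Rosa pre-pigment replicate 1 and 52 without Linea late replicate 2. Members lower at each successive stage numbered 76 to 80 for both morphs together, 42 to 56 in Linea and 37 to 47 in Rosa with a library left out.

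None of the named members' stage-averaged morph differences passed the threshold under any setting. Of 448 recomputed differences 48 changed sign, 36 of them with a library left out. The others were JC_0093592 at 0.21 with RPKM as deposited, JC_0115304 at -0.032 with quantile normalization and JC_0035277 at -0.012 with a pseudocount of 0.1. With the replicate block JC_0115304 was at -0.045, JC_0057052 at 0.10 and JC_0093053 at 0.067. With the replicate block within stage JC_0043310 was at -0.075, JC_0057052 at 0.21 and JC_0093053 at 0.13. Without both pre-pigment libraries numbered 1 JC_0025182 was at -0.14, JC_0057052 at 0.36 and JC_0093053 at 0.10. In each the cause was not tested. With a library left out, sign changes spanned JC_0115304 from -0.26 to 0.37, JC_0025182 from -0.29 to 0.51, JC_0093592 from -0.28 to 0.21, JC_0043310 from -0.24 to 0.34, JC_0057052 from -0.53 to 0.19 and JC_0093053 from -1.0 to 0.31. Unknown depth limits how far values below 1 scaled RPKM can be read.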
